A study of Mus musculus with 2 samples.

Results

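The microRNA genes described here lie in a single intron of Sfmbt2, on the plus strand of mouse chromosome 2. They were chosen by position alone: a gene belongs to the cluster if annotation GENCODE M21 calls it a microRNA on that strand and places it wholly between 10465287 and 10518279 (mm10, 1-based). This gave 119 of the 2202 microRNA genes in the deposited tables. Of these, 29 have a Mir669 symbol, 23 a Mir466 symbol, 14 a Mir467 symbol and 5 a Mir297 symbol, and 48 carry only a Gm symbol, which marks a predicted gene. Small RNAs shorter than 30 bases were sequenced from the left cerebral cortex of 2 female pups at 4 days of age. Both animals were of strain B6CASTF1/J, a first-generation hybrid of C57BL/6 and castaneus parents, and no treatment, transgene or deletion is named in the labels. They form 1 group, so the design holds no comparison of conditions and no test. The animals are numbered separately but carry the same donor record, and each gave 1 library.

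MicroRNAs are cut as short duplexes from hairpins in longer transcripts, and the bases 2 to 8 of the mature strand, the seed, guide it to messenger RNAs. Sfmbt2 encodes a Polycomb-related protein and is known as an imprinted gene expressed from the paternal copy in extraembryonic tissue. Its intron holds a tandem array of microRNA hairpins found in rodents and best known from placenta and embryonic stem cells. Near-identical copies make such an array hard to count, because a short read that fits several places cannot be given to a single gene.

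The character of these sequences can be seen in relatives outside the cluster. The annotation holds 10 genes with the same symbol stems elsewhere, and RefSeq (GRCm38.p6) gives 8 mature sequences for them, shown here to display the repeats of alternating purine and pyrimidine bases from which the families are built. The seed is in capitals.
mmu-miR-466i-3p (chromosome 13): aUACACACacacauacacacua
mmu-miR-466j (chromosome 10): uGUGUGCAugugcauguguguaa
mmu-miR-466k (chromosome 3): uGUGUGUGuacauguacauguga
mmu-miR-466q (chromosome 3): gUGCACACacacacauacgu
mmu-miR-467f (chromosome 11): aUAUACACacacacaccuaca
mmu-miR-467g (chromosome 5): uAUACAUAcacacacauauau
mmu-miR-467h (chromosome 9): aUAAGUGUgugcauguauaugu
mmu-miR-669n (chromosome 3): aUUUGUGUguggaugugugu

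None of the 8 whole sequences occurs in a hairpin of the cluster, but all 8 seed words do. The seed of miR-467g, AUACAUA, was found on the transcribed strand of 78 of 119 cluster hairpins (65.5%) and of 65 of the 2083 other microRNA hairpins (3.12%). The seed of miR-466j, GUGUGCA, was found in 62 members (52.1%) against 44 other hairpins (2.11%). The seed of miR-466i-3p, UACACAC, stood in 60 members (50.4%) against 120 other hairpins (5.76%), and in all 7 members that were detected in this cortex. The seed of miR-467h, UAAGUGU, occurred in 1 member, Mir467e, and in 13 other hairpins. These words can lie anywhere in a hairpin, and several overlap in the same repeat, so a match is not a seed of a mature microRNA. In a median member, 50% of neighbouring base pairs along the hairpin were TG, GT, CA or AC (range 32.5% to 66.7%), against a median of 26.6% in the other hairpins. The median GC content was 37.3% in the cluster and 51.7% elsewhere.

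Replicate 1 held 3555469 reads on the annotated strand of microRNA genes and replicate 2 held 2761003. Levels are CPM, counts scaled to a sum of 1000000 over these reads in each library, per hairpin and not per base. With no read, a hairpin may still have up to 3 counts, a limit of 0.844 CPM for replicate 1 and 1.09 CPM for replicate 2. Such limits, and all intervals, cover counting error only. Among markers of tissue, 9 of 13 brain microRNA genes reached 2 CPM in both libraries, against 20.4% of all microRNA genes. The brain list held 8.74% and 6.77% of counts. Of 5 striated muscle genes, 1 reached 2 CPM in both, with Mir1a-1, Mir1a-2, Mir133a-1 and Mir133a-2 at 0. The muscle list held 0.00352% and 0.00141%. The 1 liver gene reached 2 CPM in both (0.00633% and 0.00786%), as did all 3 microglia and leukocyte genes (0.0117% and 0.0146%). Of 5 epithelial genes, 4 reached 2 CPM in both, and the list held 0.193% of replicate 1 and 0.00938% of replicate 2. Both red cell genes (2 of 2) reached that level, and they held 0.00233% and 0.0520%. Whether these cells take part in the values of the cluster was not tested.

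The cluster held 8154 counts in replicate 1 and 6693 in replicate 2. That is 0.229% of microRNA counts (Wilson interval 0.224 to 0.234) and 0.242% (0.237 to 0.248), a mean of 0.236% ± 0.00925 (SD, n = 2). No read lay on the opposite strand of any member in either library. Counts were concentrated in few genes. At 2 CPM or more in both libraries, the level called detected here, 7 of 119 members (5.88%) were found, against 20.4% of all microRNA genes. All 7 are Mir467 or Mir669 genes, and together they held 99.8% of the cluster's counts in each replicate. Of the other 112 members, 7 had between 1 and 19 reads in all and 105 had none.

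Mir467d (ENSMUSG00000077021.2, chromosome 2 from 10507630 to 10507714) led the cluster with 1101 CPM in replicate 1 and 1246 CPM in replicate 2, from 3914 and 3440 counts. It alone held 48.0% (46.9 to 49.1) of the cluster's counts in replicate 1 and 51.4% (50.2 to 52.6) in replicate 2. By its mean level of 1173 ± 103 CPM it stood at place 101 among all microRNA genes, above 77.6% of the 450 detected ones.

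Mir467e (ENSMUSG00000076948.2, from 10505721 to 10505807) followed with 464 CPM and 531 CPM, a mean of 498 ± 47.1. Its hairpin begins 1.91 kb before that of Mir467d, and the 2 hairpins are identical at 92.0% of aligned positions. Mir669c (ENSMUSG00000076118.1, from 10509296 to 10509404) had 336 CPM and 352 CPM, a mean of 344 ± 11.2. These 3 neighbours, with no other detected gene between them, held 82.9% of the cluster's counts in replicate 1 and 87.8% in replicate 2. The fourth in rank, Mir669o (ENSMUSG00000077086.1, from 10514300 to 10514395), had 179 CPM and 151 CPM, a mean of 165 ± 19.9.

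The other detected members lie at the opposite end of the cluster and were lower. Mir467c (ENSMUSG00000077049.2, from 10473931 to 10474027) had 91.4 CPM and 89.8 CPM, the closest match between the animals. Mir669l (ENSMUSG00000076959.1, from 10468971 to 10469068) had 99.0 CPM in replicate 1 and 42.7 CPM in replicate 2. Mir669e (ENSMUSG00000080653.1, from 10467495 to 10467613) had 18.6 CPM and 6.16 CPM. The first 4 genes kept their order in both libraries, and neighbours in that order did not overlap over the 2 libraries. Mir467c and Mir669l changed places between the animals, so their order is not set. Levels divided by hairpin length gave the same order of the 7.

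**Figure D1:**
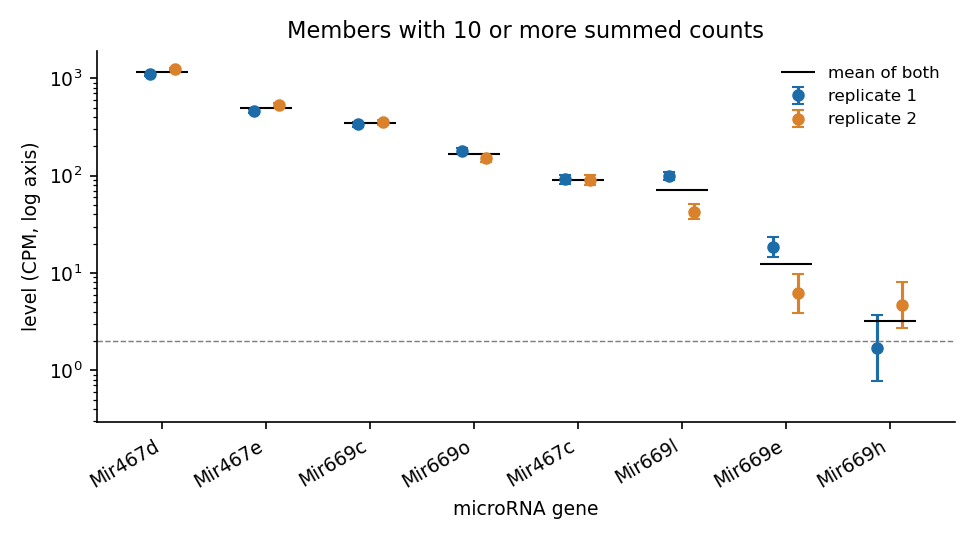
Level of the 8 members with 10 or more summed counts, in CPM on a log axis. Points are single libraries with 95% Wilson intervals (counting error only), black bars are means of both, and the dashed line marks 2 CPM. Mir467d stands at 1101 and 1246 CPM, and the libraries part most at Mir669l, Mir669e and Mir669h.

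Below the detection level, Mir669h (ENSMUSG00000080594.1), the last member of the cluster (10518155 to 10518279), had 6 and 13 counts, which is 1.69 CPM and 4.71 CPM. It passed the level in replicate 2 alone. The rest had 4 reads or fewer. Mir297a-2 had 4 and 0 counts, and was the only Mir297 gene with a read. Mir466n had 3 and 1, and Mir466h 0 and 1. Mir669f and Gm25263 had 1 read in replicate 1, and Gm22239 1 read in replicate 2. By family, the 14 Mir467 genes held 72.2% of the cluster's counts in replicate 1 and 77.0% in replicate 2, all of it from 3 genes. The 29 Mir669 genes held 27.7% and 22.9%, with 4 detected. The 23 Mir466 genes had 3 and 2 counts in all, the 5 Mir297 genes 4 and 0, and the 48 Gm genes 1 and 1.

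The 52.993 kb of the cluster fall within an intron of 62.472 kb (10461473 to 10523944) that 2 of the 7 annotated Sfmbt2 transcripts span. It is the intron numbered 10 in 1 of them and 11 in the other. The first member, Gm22072 (10465287 to 10465407), begins 3.81 kb after the exon before it, and Mir669h ends 5.67 kb ahead of the next exon. No member overlaps an exon. RNA of the host gene was not analysed here.

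Along this intron the counted reads, those that fit a single place, lay at both ends and none in the middle. The middle was taken, after the values had been seen, as the stretch from Mir467a-1 to Mir467a-10 (10476346 to 10503355), a run of repeat units, most of which hold a Mir467a, a Mir466 and a Mir669a or Mir669p copy beside Gm genes. Its Mir467a and Mir467b copies start 2454.5 bases apart in the median (2413 to 4880, the longest gap holding the unnamed copy Gm25022). None of its 65 members had a read in either library. The 21 members before it held 748 and 383 counts, or 9.17% and 5.72% of the cluster, with 3 detected. The 33 members after it held 7406 and 6310 counts, or 90.8% and 94.3%, with 4 detected.

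**Figure D2:**
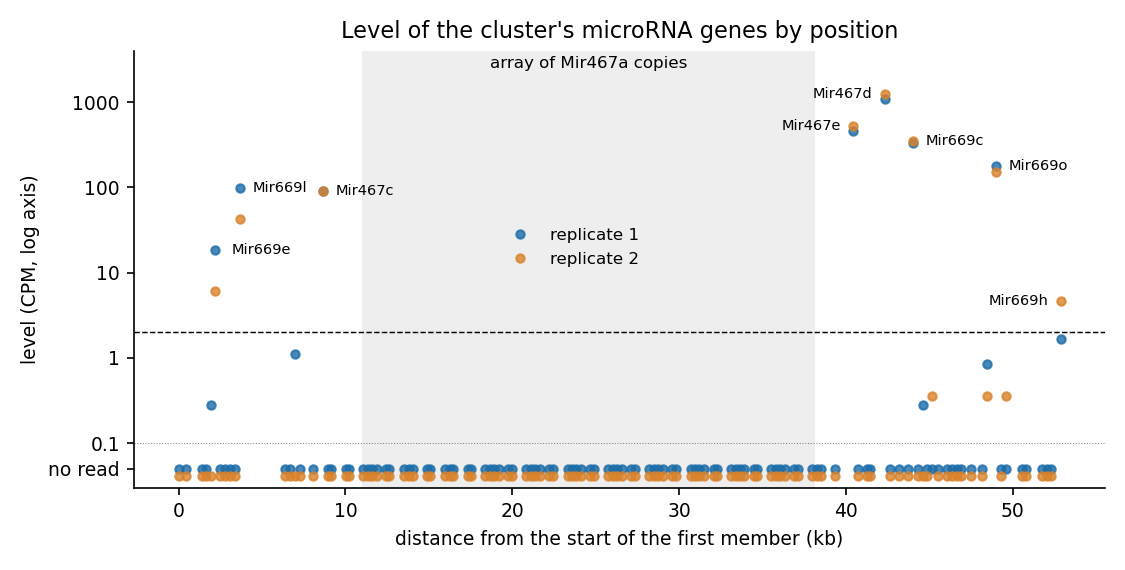
Level of the 119 members in CPM (log axis) against the distance of their start from that of the first member, in kb. Points are single libraries, those at the bottom had no read, the dashed line marks 2 CPM, and the grey band is the stretch from Mir467a-1 to Mir467a-10. Reads that fit several places are not counted. All members with a read lie outside the band, with Mir467d, Mir467e, Mir669c and Mir669o to its right.

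The same stretch is the part of the cluster where hairpins differ least from each other. To describe this, each hairpin was cut into all its overlapping words of 22 bases, about the length of a mature microRNA, and a word was called the hairpin's own if no microRNA hairpin at another locus held it on either strand. In the cluster 65 of 119 hairpins (54.6%) had any own word, against 88.3% of the other microRNA genes. In the Mir467a stretch it was 15 of 65, before it 20 of 21 and after it 30 of 33. None of the 54 members without an own word had a read. Of the 65 with at least 1, 7 (10.8%) were detected and 14 had a read. Among other microRNA genes, 24.0% of the 1840 with an own word were detected and 776 had a read. Of the 243 without, 0.412% were detected and 5 had a read. The deposited counts are of reads that fit a single place, while reads that fit several made up 45.8% of replicate 1 and 41.0% of replicate 2 and are assigned to no gene. How many of these came from the cluster was not tested, so a count of 0 for a member without an own word does not give its level. Words were compared only between microRNA hairpins, not with the rest of the genome. A count of 0 for a member with an own word may therefore miss reads too.

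An own word was not enough for a member to have counted reads. Such a word may lie outside the mature strand or recur elsewhere in the genome, which was not tested. Of the 65 members that had one, 51 had no read, among them all 15 in the Mir467a stretch. Mir466g (10514595 to 10514674), where all 59 words were its own, had no read in either library, while the next gene, Mir466h, with 58 of 60 own words, had 1. Mir466l, with 89 of 100 own words, had none. Mir669b, with 68 of 76, was also at 0, although it lies between the detected Mir669e and Mir669l. Of the 27 members with own words in 50% to below 100% of the hairpin, 6 were detected (22.2%), against 15.2% of 382 other genes in that range. With own words above 0% and below 50%, 1 of 36 members was detected, which was Mir467d, and none of 290 other genes in that range. Where all words were the hairpin's own, 0 of 2 members and 384 of 1168 other genes (32.9%) were detected. Those ranges were set after the values had been seen. The detected members had a median of 59.1% own words (39.1% to 96.9%), and members with an own word that were not detected had 41.5% (1.89% to 100%).

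**Figure D3:**
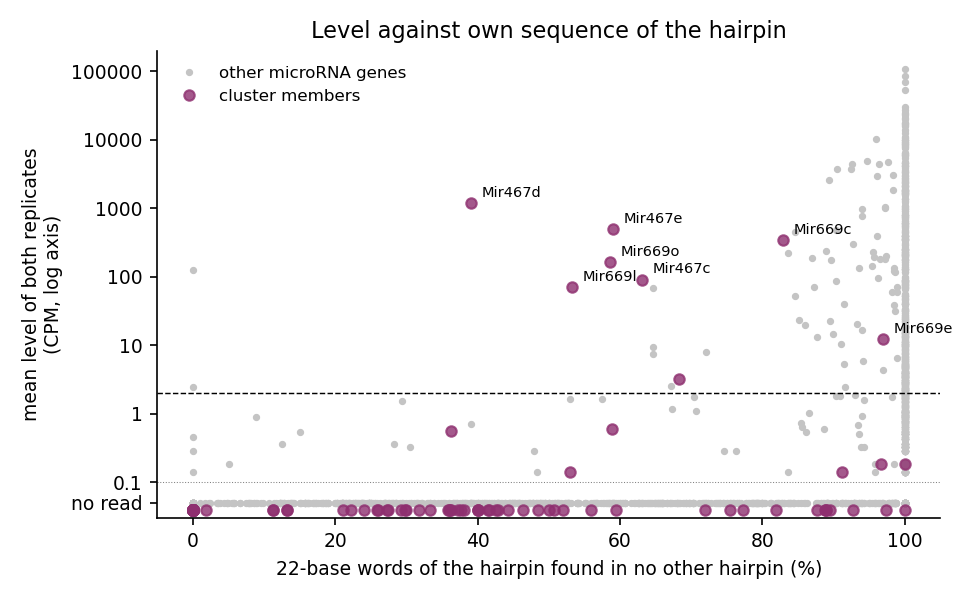
Mean level of both libraries in CPM (log axis) against the share of a hairpin's 22-base words that no other hairpin holds, in percent. Purple points are the 119 members, grey points the 2083 other microRNA genes, points at the bottom had no read, and the dashed line marks 2 CPM. Mir467d reaches 1173 CPM with 39.1% own words, and the members at 0% all have no read.

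Of the 7 detected members, 6 share words with members of the cluster that had no read. Mir467d shares 39 of its 64 words with each of Gm25022, Mir467a-5 and Mir467a-7, each identical to it at 85.4% of aligned positions. Its own words lie mainly in the first part of the hairpin, 19 of 25. Mir669o shares 29 of 75 words with Mir669a-1, Mir669a-2 and Gm26092, at 91.8% to 92.8% identity. Mir669l shares 36 of 77 with Mir669d, and Mir669c 15 of 88 with Mir669a-3. Mir467c shares 27 of its 76 words with Mir467e and 13 with Mir467d, so that reads from those words fit more than 1 of these genes. Mir467d and Mir467e share 13. Mir669e, with 95 of 98 own words, was the lowest of the 7. It shares a word with no other member of the cluster, but 3 words with Gm27361 outside it, which had no read. Counts of all 7 are therefore uncertain, since a read from a shared word fits more than 1 hairpin.

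Between the animals the cluster as a whole differed little. Log2 ratios are of replicate 2 over replicate 1 after scaling with trimmed mean of M-values (TMM) factors over all microRNA genes. The summed counts had a log2 ratio of 0.063 (counting interval 0.016 to 0.11), and without Mir467d it was -0.035. Among the 6 members that reached 100 counts over both libraries, 1 was at least 2-fold apart (16.7%), against 15.9% of the 308 such genes in the tables. That gene was Mir669l, whose level in replicate 1 was 2.34 times that in replicate 2, with a log2 ratio of -1.23 (-1.54 to -0.92). Its neighbour Mir669e, below that minimum with 66 and 17 counts, had a log2 ratio of -1.58 (-2.47 to -0.82), or a level 2.99 times as high in replicate 1. Both lie within 1.57 kb at the start of the cluster. Mir467c, 4.96 kb further on, had a log2 ratio of -0.04 (-0.29 to 0.20).

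After the Mir467a stretch, the 4 detected members had ratios nearer to 0 than those of Mir669l and Mir669e. Mir467e had a log2 ratio of 0.18 (0.07 to 0.28), Mir467d 0.16 (0.09 to 0.23) and Mir669c 0.05 (-0.07 to 0.17). Mir669o had -0.26 (-0.45 to -0.08), with the higher level in replicate 1. Mir669h had a log2 ratio of 1.40 from 19 reads, with an interval that spanned 0 (-0.03 to 3.14). For each of these 8 genes the sign was the same under TMM, relative log expression factors and library size alone. Summed by position, the members before the Mir467a stretch had a log2 ratio of -0.62 (-0.80 to -0.44). Those after it had 0.12 (0.07 to 0.17). The stretch was set after the values had been seen. The sum before it, 748 and 383 counts, includes 352 and 118 from Mir669l and 66 and 17 from Mir669e. Mir467c, also in that sum, had a log2 ratio of -0.04. Over all 308 genes the middle 50% of ratios lay between -0.47 and 0.24. A single library per animal leaves these differences without a replicate check.

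**Figure D4:**
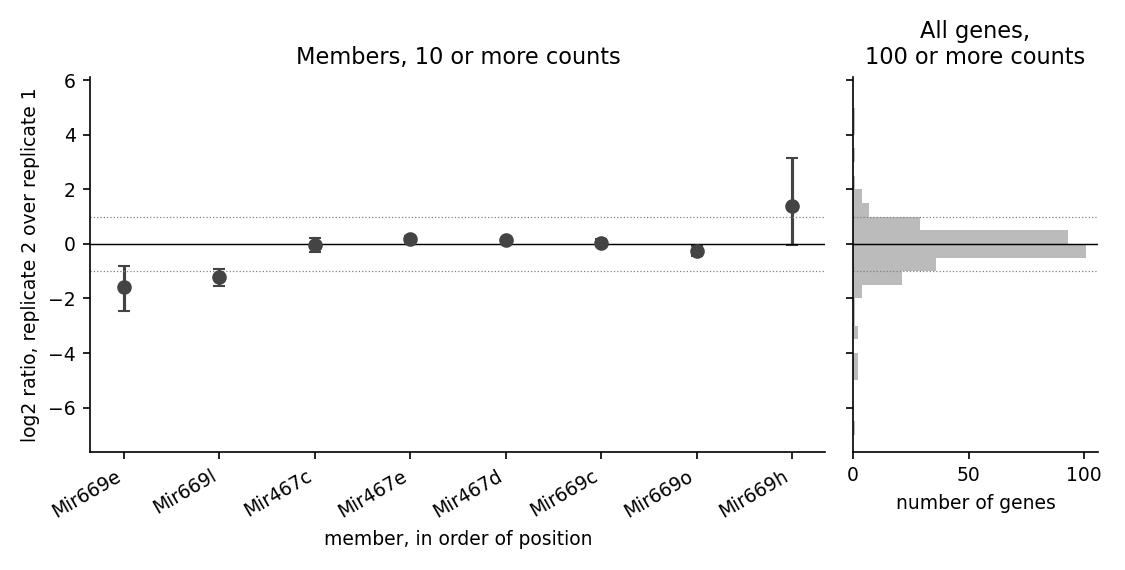
Log2 ratio of replicate 2 over replicate 1 for the 8 members with 10 or more summed counts, in order of position, with 95% exact counting intervals (left), beside the number of all genes with 100 or more summed counts at each ratio (right). Dotted lines mark 2-fold. Mir669e and Mir669l lie below -1 and the members from Mir467c to Mir669o lie near 0.

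Outside the cluster the same families had few counted reads. Of the 10 genes with these symbol stems elsewhere, 0 were detected, against 20.4% of all microRNA genes. Each has own words, from 40% of the hairpin in Mir297-1 and Mir467h to 100% in Mir669n. Those words were not compared with the rest of the genome, so counts of 0 do not give the levels. Mir466q on chromosome 3 (28419943 to 28420018), whose mature sequence is printed above, had 2 and 5 counts, or 0.563 CPM and 1.81 CPM. The other 9, among them Mir297-1, Mir466f-4, Mir466i and Mir466j, had none.

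A second tandem cluster, the imprinted run from Mir379 to Mir410 on chromosome 12 (109709060 to 109743795), gave another picture in the same libraries. There 35 of 38 genes (92.1%) were detected, against 20.4% of all microRNA genes. All 38 have own words, with a median of 100% of the hairpin. That cluster held 7.31% ± 0.949 of microRNA counts (n = 2). Its leading gene Mir382 took 21.2% and 28.0% of that cluster's counts, where Mir467d took 48.0% and 51.4% of its own. These shares are set side by side for 2 clusters in the same 2 libraries, and their difference was not tested. The totals are not alike, since 54 of the 119 Sfmbt2 members have no own word and had no counted read.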

How the data were processed

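The authors deposited, for each library, a table of raw read counts per microRNA gene, made on mm10 with annotation GENCODE M21, per the deposited notes. The aligner, the counter, trimming and filters are not given in the sources used here. The tables have no column names, and the second value column was read as counts on the annotated strand, the first as either strand and the third as the opposite strand, from the layout and the values. Totals that name no gene (69.6% and 72.2% of all reads) stayed out of library sizes. Castaneus variants can affect mapping to mm10, which was not tested.

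All 2202 gene IDs matched the annotation, which gave symbols, positions and hairpin sequences. The RefSeq miRNA table matched 0 of 119 members by symbol and 9 of the 10 relatives. Here CPM were computed from the deposited counts, TMM and relative log expression factors with edgeR 4.0.16 (R 4.3.3), and intervals with scipy 1.17.1. Ratios have 0.5 added to each count. Their calculation was checked on counts simulated with counting error only, which does not check the spread between animals. Genes at overlapping positions counted as 1 locus when words were compared. Hairpins were aligned end to end with Biopython 1.88 (match 1, mismatch -1, gap opening -2, extension -0.5). Intervals have a level of 95%.

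Members at 2 CPM in both libraries, other members with 10 or more summed counts, the first and last member, the 5 leading relatives (the last 4 tied at 0 and taken by name) and up to 3 nearest hairpins of each detected member were named, and genes beyond these were chosen after their values were seen. The members and lists were chosen with earlier results of these data known.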

Additional observations from a re-analysis of the deposited data

How the results depend on the processing

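Most alternatives left these values within 1 SD of the replicates, within the counting interval or, for counts of genes, within 1.5 times. The share of the cluster was 0.251% with counts of either strand, where the members' counts were the same and the sum over microRNA genes was smaller, and 0.0686% of all reads of the tables. With any read in either library in place of 2 CPM, 14 members were found, all 14 with an own word, and 1 relative outside the cluster. Among genes outside the cluster, 776 of the 1840 with an own word and 5 of the 243 without had a read. At 1 CPM the members detected were 8, with Mir669h, and at 5 CPM 7. The cluster's log2 ratio without Mir467d was -0.035, and the cause was not tested. With a minimum summed count of 20, 2 members were at least 2-fold apart, Mir669l and Mir669e. Words of 18 bases gave the same 65 members with an own word. Leaving out 1 replicate gave a cluster share of 0.229% to 0.242% and 7 to 8 members detected. Copies by mature sequence were not run, since the RefSeq table matched no member. No paired analysis was possible because there is 1 group. Precision below about 10 reads is limited by depth, as for Mir669h.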
